A study of Saccharomyces cerevisiae with 15 samples.

Results

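The tricarboxylic acid (TCA) cycle and retrograde response genes CIT1, CIT2, ACO1, IDH1, IDH2, DLD3, KGD1, FUM1, RTG1 and RTG3 were followed in yeast cells that lack a subunit of THSC/TREX-2, the complex that couples transcription to mRNA export at the nuclear pore. They are 10 of the 5449 genes measured, each read by 1 probe set, and were picked as targets and regulators of the retrograde pathway or as further enzymes of the cycle, with their values in the mutants already known. For that reason no p-value of a single one of these genes is given for the mutants. Where they are counted as called or as under a p threshold in a mutant, the count is a description. It is no test of these genes. Total RNA from sac3∆, thp1∆ and sus1∆ cells and from the wild types BY4741 and BY4742 was hybridized to Affymetrix arrays, 3 arrays per strain and 15 in all, to ask which transcripts depend on each subunit. Sus1 also belongs to the SAGA complex, in its module that removes ubiquitin from histone H2B. Through which complex a change in sus1∆ arises was not tested.

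Every strain carried the deletions his3∆1, leu2∆0 and ura3∆0. BY4741 and sac3∆ also carried met15∆0, whereas BY4742, thp1∆ and sus1∆ carried lys2∆0, and in each mutant a KanMX cassette replaced the deleted gene. Cells came from mid-log cultures in YPD, a rich liquid medium with glucose. sac3∆ was compared with BY4741, and thp1∆ and sus1∆ were compared with BY4742, so that these last comparisons share their 3 control arrays. Each genotype is represented by 1 strain, and the labels call its arrays biological replicates without saying whether they came from separate cultures, so that a p-value covers no more than the spread among these arrays. A lower value in such a bulk sample cannot tell fewer expressing cells apart from less RNA per cell.

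The TCA cycle oxidizes acetyl-CoA in the mitochondrial matrix and supplies α-ketoglutarate, the carbon skeleton of glutamate. In yeast, the first steps of the cycle up to α-ketoglutarate are controlled by the retrograde pathway when mitochondrial function is low: Rtg2 relieves the inhibition by Mks1, and the transcription factors Rtg1 and Rtg3 enter the nucleus as a dimer and activate CIT2, DLD3 and, in cells with little respiration, CIT1, ACO1, IDH1 and IDH2. In respiring cells the early cycle genes, like the rest of the cycle, are driven mainly by the HAP complex.

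The deleted genes SAC3, THP1 and SUS1 read 13.65 to 22.77 units in their own mutants and at least 763 units in every array of the other strains that had a value. MET17 was near background in BY4741 and sac3∆ (12.88 to 24.54) and LYS2 was low in BY4742, thp1∆ and sus1∆ (33.89 to 77.17). The labels give MATa for all strains. The α-specific gene STE3 nevertheless read 6662 to 9472 in BY4742, thp1∆ and sus1∆ and 157.3 to 564.1 in BY4741 and sac3∆. The a-specific gene MFA2 was at 11156 to 17134 in BY4741 and sac3∆. It read 145.3 to 164.1 in BY4742, 255.7 to 295.5 in sus1∆ and 900.5 to 1112 in thp1∆. Each mutant thus expressed mainly the mating type genes of the wild type it was compared with, though MFA2 was higher in thp1∆ and sus1∆ than in BY4742. BY4741 replicate 3 had 862 empty cells (14.6% of its probe sets), against 0 to 22 in the other arrays. The 3′/5′ signal ratio of a control gene rises as RNA is degraded or copied less fully. For SRB4 it averaged 4.40 in BY4742, 4.92 in sus1∆, 6.51 in BY4741, 10.4 in sac3∆ and 12.5 in thp1∆. The thp1∆ arrays ranged from 8.837 to 19.33 (SD 5.952). Other controls differed less between strains. Their strain means ran from 1.201 to 1.398 for ACT1, 0.9889 to 1.222 for RIP1, 1.702 to 2.229 for SPT15 and 1.75 to 2.616 for EAF5. Each of these was also higher in sac3∆ and thp1∆ than in the wild type compared. The part of RNA quality in the values below was not tested.

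CIT1, CIT2, ACO1, IDH1, IDH2 and DLD3, the genes of the early cycle and the retrograde targets, lay above every BY4742 array in every array of sus1∆ and thp1∆, as 39.0% and 44.6% of all tested genes did; not all of them were called in thp1∆. A gene was called when its limma adjusted p was under 0.05, its fold change 1.5 or more and its difference of means over 100 units, among genes that were not under 600 units in at least 50% of the 6 arrays compared. RTG1, below 600 units in all 15 arrays, did not pass this filter, which left 9 of the 10 genes. In sus1∆, 6 of the 9 were called up (CIT1, CIT2, ACO1, IDH1, IDH2 and DLD3) and 0 down, in a comparison where 3.46% of all tested genes were called up and 4.86% in either direction. In thp1∆, 4 of the 9 were called up (CIT2, ACO1, IDH2 and FUM1) and 0 down, where 14.9% of all tested genes were called up and 21.1% in either direction. In sac3∆, 0 of the 9 were called by limma in either direction, where 12.1% of all tested genes were called. Of the 9, 3 had an unadjusted p under 0.05, and 0 passed the methods' criteria, which leave p unadjusted and called 368 genes in all. The share of all genes under the unadjusted p alone is not given here, so that the count of 3 has no background. The median log2 fold change of the 9 genes was 1.08 in sus1∆, 0.55 in thp1∆ and 0.03 in sac3∆, beside 0.03, 0.06 and 0.06 over all genes tested. The shares of all tested genes in thp1∆ and sac3∆ take in chromosome XVI, with 339 and 340 tested genes. Its median was 0.86 in thp1∆ and 0.51 in sac3∆, beside 0.02 and 0.03 on the other chromosomes. Of the 9 genes, only FUM1 lies on it.

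**Figure D1:**
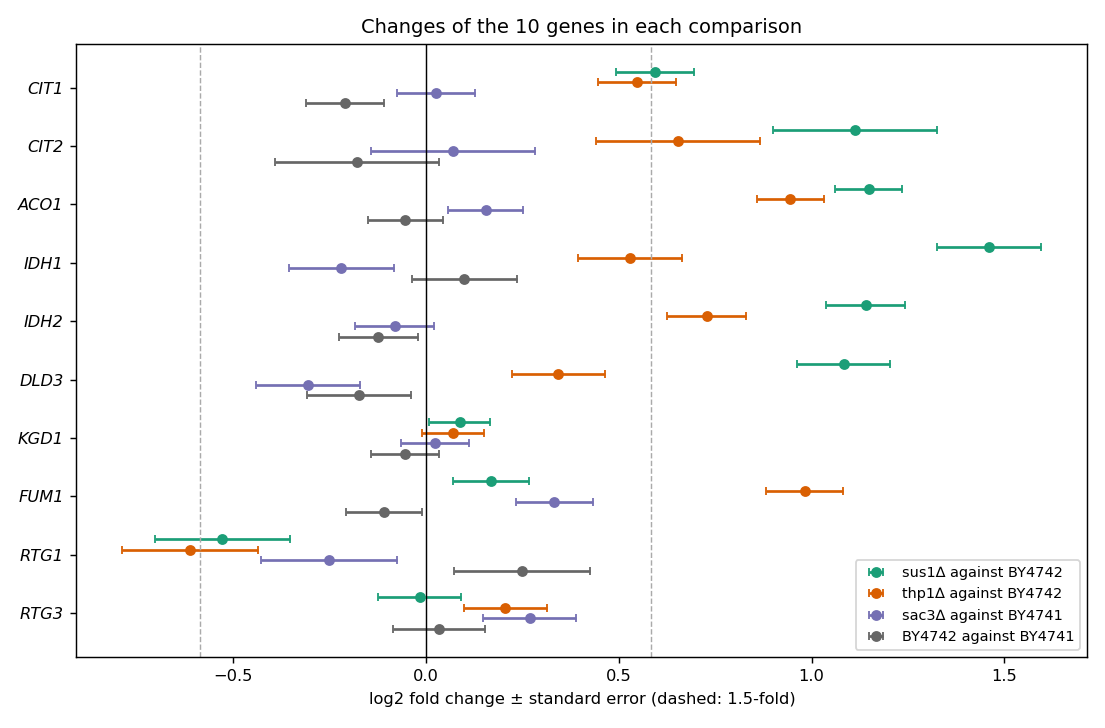
Log2 fold change with its standard error (x axis) of each of the 10 genes (y axis) in the 4 comparisons, with dashed lines at 1.5-fold. In sus1∆, 6 genes from CIT1 to DLD3 lie right of the dashed line, from 0.59 to 1.46, whereas in sac3∆ all 10 genes lie between −0.30 and 0.33.

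CIT1 encodes the mitochondrial citrate synthase, which makes the first product of the cycle. Its values were 4699, 4754 and 4559 units in BY4742, 7143, 6934 and 7071 in sus1∆ and 6670.0, 7213 and 6603 in thp1∆. All arrays of both mutants lay above all BY4742 arrays, and the mutants overlapped each other. The log2 fold change was 0.59 ± 0.10 (SE, n = 3) in sus1∆ and 0.55 ± 0.10 in thp1∆, on either side of the 1.5-fold limit (1.51-fold and 1.46-fold), so that only the first was called. The sus1∆ call was lost when the array medians were set equal (0.52), after quantile normalisation, without BY4742 replicate 3 and without sus1∆ replicate 1. In BY4741 the gene read 4332, 6068 and 5993 units and in sac3∆ 5525, 5519.6 and 5468, with the sac3∆ arrays inside the range of the wild type (0.03 ± 0.10).

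CIT2 encodes the citrate synthase of the peroxisome and is the gene by which the retrograde response is usually followed. It measured 4657, 4521 and 4187 units in BY4742, 9185, 10249.9 and 9480.2 in sus1∆ and 7298, 7568 and 6202 in thp1∆. The 3 strains did not overlap, with sus1∆ highest. The log2 fold changes were 1.11 ± 0.21 in sus1∆ (2.16-fold) and 0.65 ± 0.21 in thp1∆ (1.57-fold). The thp1∆ call was lost with equal array medians (0.53), after quantile normalisation, without BY4742 replicate 3 and without thp1∆ replicate 2. In BY4741, replicate 2 stood far above the others (8195 against 3882 and 4022 units), and the sac3∆ arrays (5743, 5319 and 4852) lay between them. The sac3∆ value of 0.07 ± 0.21 therefore depended on 1 wild-type array: without BY4741 replicate 2 it was 0.42, still not called.

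ACO1 encodes aconitase, which turns citrate into isocitrate. It was at 6257, 6329 and 6275 units in BY4742, 13523, 14136 and 14156 in sus1∆ and 12674, 12684 and 11026 in thp1∆. The BY4742 arrays were nearly equal, and both mutants stood far above them without overlapping each other. Log2 fold changes were 1.15 ± 0.09 in sus1∆ and 0.94 ± 0.09 in thp1∆ (2.22-fold and 1.93-fold). In sac3∆ the values of 7578, 6314 and 8010.4 overlapped the 2 values of BY4741 (6818 and 6236; the cell of replicate 3 is empty), and the change was 0.16 ± 0.10.

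IDH1 and IDH2 encode the subunits of the NAD-dependent isocitrate dehydrogenase of the matrix, which yields α-ketoglutarate. IDH1 read 4401, 4442 and 4259 units in BY4742, 11764, 11959.8 and 12355 in sus1∆ and 6887, 6590.2 and 5506 in thp1∆. Every sus1∆ array was thus far above every thp1∆ array, and these above BY4742. Its log2 fold change of 1.46 ± 0.14 in sus1∆ (2.75-fold) was the largest of the 10 genes in any of the 4 comparisons, and in thp1∆ it was 0.53 ± 0.14, short of 1.5-fold. Without thp1∆ replicate 3, the lowest of its strain, IDH1 was called there too (0.63).

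IDH2 gave 6686, 6749 and 6954 units in BY4742, 14699, 15015 and 15217 in sus1∆ and 11919, 11391 and 10499 in thp1∆. The strains were again in the order sus1∆, thp1∆, BY4742 with no overlap. The change was 1.14 ± 0.10 in sus1∆ and 0.73 ± 0.10 in thp1∆. On the log2 fold change scale IDH1 was thus below IDH2 in thp1∆ (0.53 and 0.73), where only IDH2 was called, and above it in sus1∆ (1.46 and 1.14). Their values come from different probe sets, and the difference between them was not tested. In sac3∆, IDH1 (3249, 2914 and 4528 units) and IDH2 (6887, 5884 and 8462 units) both overlapped BY4741, where IDH1 was at 3656, 4198 and 4402 and IDH2 at 6964, 7644 and 7609. sac3∆ changes were −0.22 ± 0.14 for IDH1 and −0.08 ± 0.10 for IDH2.

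**Figure D2:**
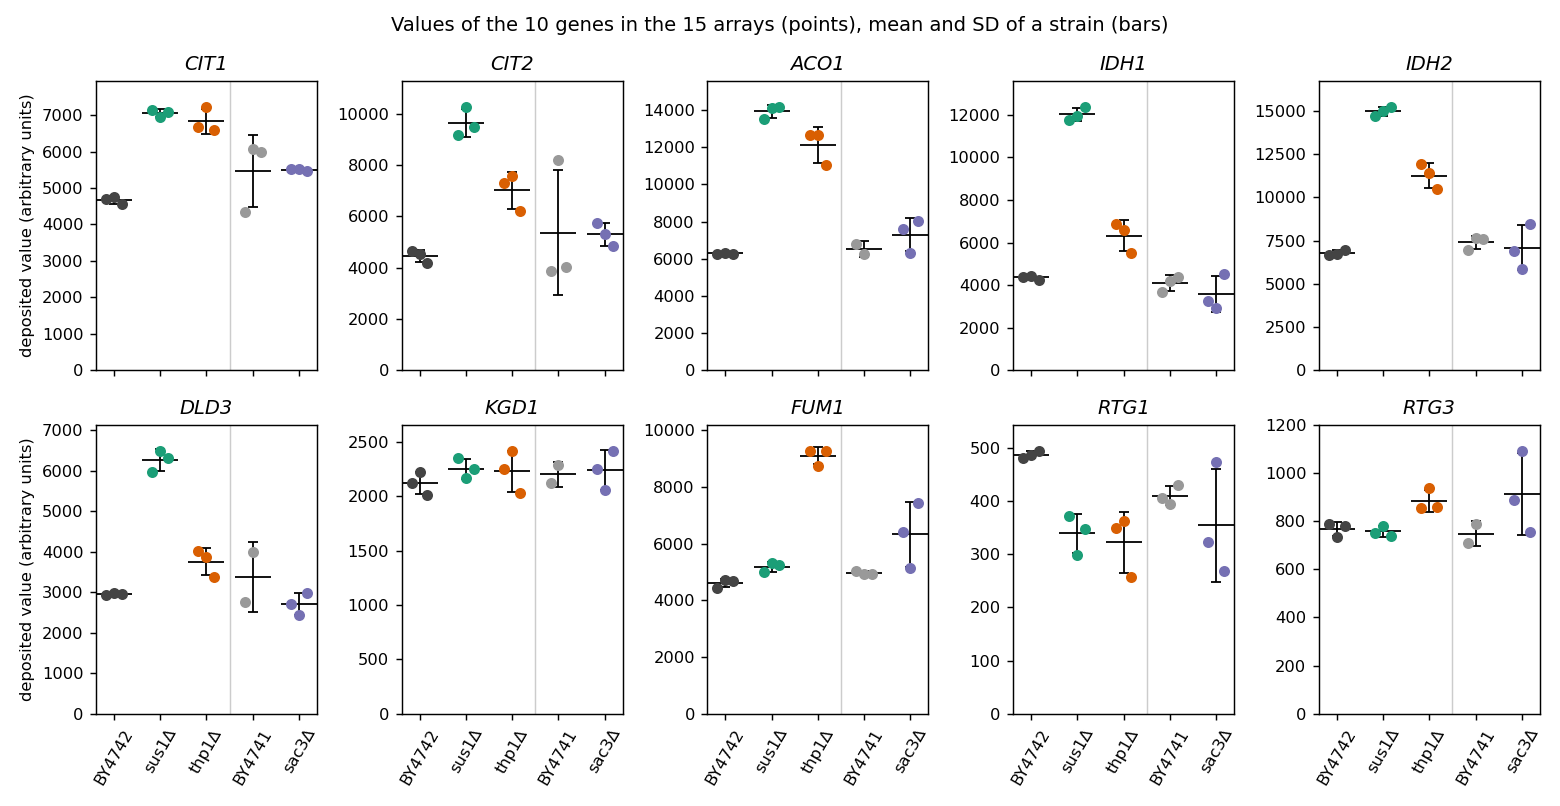
Deposited value in arbitrary units (y axis, from 0) of each gene in each array (points), grouped by strain (x axis), with the mean and SD of the strain as bars and a grey line between the comparisons with BY4742 (left) and BY4741 (right). For IDH1 the sus1∆ points lie at 11764 to 12355 and the thp1∆ points at 5506 to 6887, above BY4742 at 4259 to 4442.

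DLD3 encodes a cytoplasmic enzyme of the D-lactate dehydrogenase family and is, like CIT2, a common marker of the retrograde response. It read 2926, 2977 and 2946 units in BY4742, 5957, 6489 and 6318 in sus1∆ and 4018, 3869.5 and 3373 in thp1∆. Both mutants were above the tight values of BY4742, sus1∆ by more. The log2 fold change was 1.08 ± 0.12 in sus1∆ (2.12-fold) and 0.34 ± 0.12 in thp1∆ (1.27-fold), so that DLD3 was called in sus1∆ alone. In sac3∆ the values were 2709, 2427 and 2975 units, and in BY4741 2769 and 3997, with the cell of replicate 3 empty. The change of −0.30 ± 0.13 in sac3∆ was −0.04 without BY4741 replicate 2 and −0.57 without BY4741 replicate 1, where a single wild-type value is left.

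KGD1 and FUM1 act after α-ketoglutarate. KGD1, which encodes the first component of the α-ketoglutarate dehydrogenase complex, stayed between 2016 and 2419 units in all 14 arrays that had a value. Its log2 fold change was 0.09 ± 0.08 in sus1∆, 0.07 ± 0.08 in thp1∆ and 0.02 ± 0.09 in sac3∆, and its arrays overlapped those of the wild type in all 3 mutants. With equal array medians the thp1∆ and sac3∆ values were −0.05 and −0.07, so that no direction can be given.

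FUM1, the gene of fumarase, which makes malate from fumarate, had another order of strains. It read 4451, 4707 and 4670.2 units in BY4742, 9277, 8755 and 9280.1 in thp1∆ and 4992, 5323 and 5237 in sus1∆. Both mutants were above BY4742 in every array, but here thp1∆ was far above sus1∆. Log2 fold changes were 0.98 ± 0.10 in thp1∆, the largest of the 10 genes in that mutant, and 0.17 ± 0.10 in sus1∆. In sac3∆, with 6409.55, 5143 and 7431 units against 5039.7, 4923 and 4932 in BY4741, FUM1 was the only 1 of the 9 genes whose arrays lay fully above the wild type, where 26.9% of all tested genes did, and its change was 0.33 ± 0.10; 0 of the 9 lay fully below, where 18.3% did. FUM1 is also the only 1 of the 10 genes on chromosome XVI. Tested genes of that chromosome had a median change of 0.86 on the log2 scale in thp1∆ (339 genes), 0.51 in sac3∆ (340), 0.04 in sus1∆ (330) and −0.01 between the wild types (328). Set against these medians, FUM1 differed by 0.13, −0.18, 0.13 and −0.10, and it stood at percentile 60.8, 27.6, 72.7 and 23.8 of the chromosome.

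**Figure D3:**
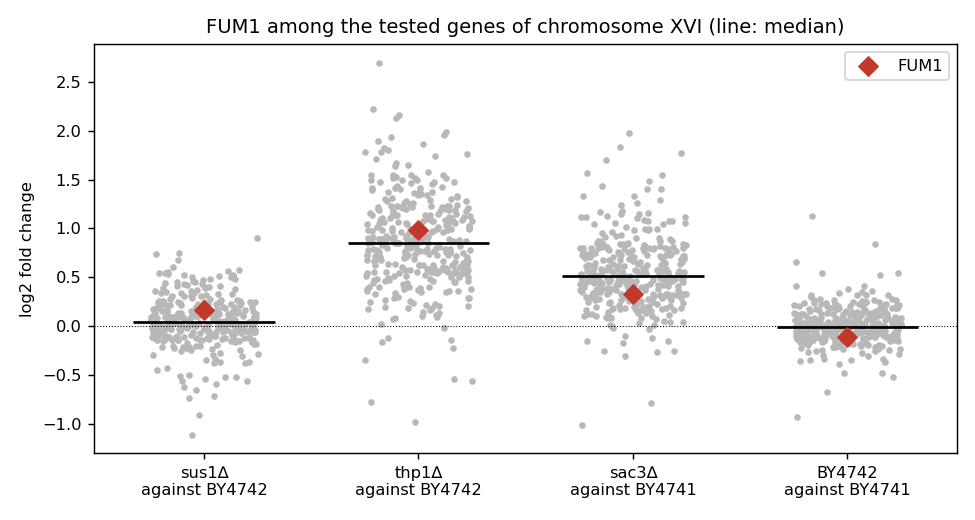
Log2 fold change (y axis) of the tested genes of chromosome XVI (grey points, spread sideways at random) in each comparison (x axis), with their median as a line and FUM1 as a red diamond. FUM1 lies near the median in all 4 comparisons, 0.13 above it in thp1∆ and 0.18 below it in sac3∆ on the log2 scale.

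RTG1 and RTG3 encode the transcription factors themselves. RTG1 read 480.8, 485.6 and 494.1 units in BY4742, 371.6, 299.0 and 346.8 in sus1∆ and 348.4, 362.5 and 256.2 in thp1∆. All arrays of both mutants were below all BY4742 arrays, all of them in the range that the filter removes. The log2 fold change was −0.61 ± 0.18 in thp1∆ and −0.53 ± 0.18 in sus1∆. With no filter RTG1 was called down in thp1∆. In sac3∆ the gene varied widely between arrays (322.3, 473.0 and 267.4 units) and overlapped BY4741 (405.9, 394.1 and 429.1), at −0.25 ± 0.18. RTG1 lies 5 genes from THP1 on chromosome XV, with 4 genes between them.

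RTG3 was at 733 to 787 units in BY4742, 739 to 781 in sus1∆ and 856 to 936 in thp1∆. sus1∆ lay on the wild type, while thp1∆ was just above it. The changes were −0.02 ± 0.11 in sus1∆ and 0.21 ± 0.11 in thp1∆, the latter 0.08 with equal array medians, so that neither reached 1.5-fold. In sac3∆ it read 886.4, 1091 and 754.5 units against 710.2 and 786.0 in BY4741, again with replicate 3 empty, an overlap with a change of 0.27 ± 0.12. RTG3 was thus called in no mutant, and RTG1 was not tested at these levels.

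Counted over arrays, all arrays of sus1∆ were above all of BY4742 for 7 of the 9 genes, where 39.0% of all tested genes were, and all of thp1∆ for 8 of the 9 (each but KGD1), where 44.6% were. For 0 of the 9 were they all below, which 26.8% of all tested genes were in sus1∆ and 32.9% in thp1∆. The arrays differed in scale, with medians from 1260.0 to 1460.2 units. Setting the medians equal lowered the log2 fold change by 0.12 in thp1∆ and 0.08 in sus1∆, and by 0.12 in sac3∆ for genes with a value in all arrays. These shifts were larger than the median change of the tested genes, which was 0.06 in thp1∆, 0.03 in sus1∆ and 0.06 in sac3∆. The values of CIT2, ACO1, IDH1, IDH2 and DLD3 in sus1∆ stayed at 1.01 or above with equal medians, and those of ACO1 and FUM1 in thp1∆ at 0.82 and 0.86, each still called. In sac3∆ the small positive values of CIT1 and CIT2 turned to −0.09 and −0.05.

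The arrays of a strain also ranked alike for several of these genes. In sac3∆, replicate 3 was the highest and replicate 2 the lowest for ACO1, IDH1, IDH2, DLD3, KGD1 and FUM1, while replicate 2 was the highest and replicate 3 the lowest for RTG1 and RTG3. In thp1∆, replicate 3 was the lowest for 8 of the 10 genes, FUM1 and RTG3 excepted. The highest array of sac3∆ was 1.55 times the lowest for IDH1, 1.44 times for IDH2 and 1.45 times for FUM1, and in BY4741 these ratios were 1.204, 1.098 and 1.024.

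The wild types were compared as a measure of the difference between backgrounds, on the same arrays the mutants were set against. In BY4742 against BY4741, 0 of the 9 genes were called by limma, where 1.1% of all tested genes were called. Of the 9, 0 had an unadjusted p under 0.05 and 0 passed the methods' criteria, which called 38 genes in all. The lowest adjusted p was 0.262, for CIT1 (−0.21 ± 0.10). BY4742 lay fully below BY4741 for 2 of the 9, IDH2 (−0.12 ± 0.10) and FUM1 (−0.11 ± 0.10), where 16.2% of all tested genes did, and fully above for 0 of the 9, where 12.7% did. For CIT2 the value of −0.18 ± 0.21 (adjusted p = 0.667) turned to 0.17 without BY4741 replicate 2.

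Of 63 other genes of the cycle, its entry points, carriers and regulators, 50 to 52 passed the filter in a comparison. Their lists were chosen with earlier results of these data known, so that the adjusted p-values given for them are not those of lists set in advance. In sus1∆, 2 of 52 were called up and 3 down, where 3.46% of all tested genes were called up and 1.39% down. In thp1∆, 7 of 51 were called up and 1 down, where the shares were 14.9% and 6.17%; this split turned to 1 up and 4 down with equal array medians and to 1 up and 3 down after quantile normalisation. In sac3∆, 1 of 51 was called in each direction, where the shares were 8.84% and 3.25%. Between the wild types 1 of 50 was called up and 0 down, where 0.909% of all tested genes were called up and 0.186% down. The methods' criteria called 1 of the 50, and 38 genes in all. Of the 50, 6 had an unadjusted p under 0.05, a count without the share of all genes beside it.

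**Figure D4:**
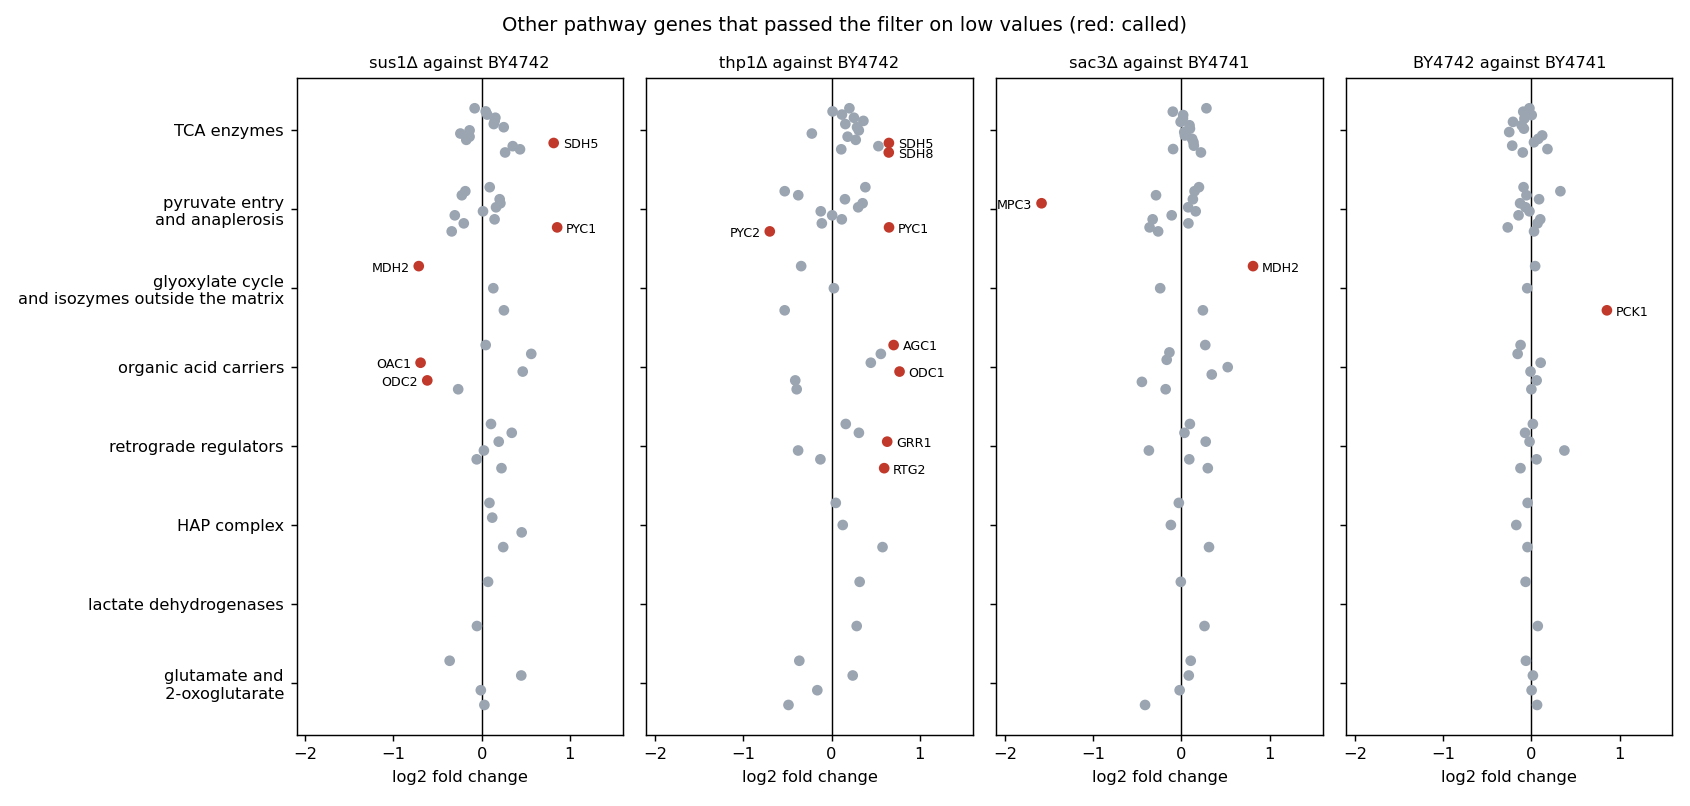
Log2 fold change (x axis) of the other pathway genes that passed the filter, by gene list (y axis), in each of the 4 comparisons, with called genes in red and named. Most of the 50 to 52 genes per comparison lie within 1.5-fold of the wild type, and 5 are called in sus1∆, 8 in thp1∆, 2 in sac3∆ and 1 between the wild types.

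Among the remaining TCA enzymes, SDH5, which encodes the factor that attaches flavin to succinate dehydrogenase, rose in sus1∆ (0.82 ± 0.12, adjusted p = 0.000348) and thp1∆ (0.65 ± 0.12, adjusted p = 0.000482). It read 1573, 1637 and 1494 units in BY4742, 2617, 2794 and 2883 in sus1∆ and 2701, 2486 and 2218 in thp1∆. The arrays of both mutants thus stood clear of the wild type. SDH5 is the direct neighbour of THP1 on chromosome XV. SDH8, for an assembly factor of the same enzyme, rose in thp1∆ (0.65 ± 0.14, adjusted p = 0.00106). The other 13 of the 15 TCA enzymes tested were called in neither of these mutants, where 21.1% (thp1∆) and 4.86% (sus1∆) of all tested genes were. The thp1∆ calls of SDH5 and SDH8 were lost with equal array medians (0.53 for each), after quantile normalisation and without thp1∆ replicate 1.

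PYC1 and PYC2 encode the isozymes of pyruvate carboxylase, which refills the cycle with oxaloacetate, and in thp1∆ they moved in opposite directions. PYC1 read 2543, 2430.5 and 2344 units in BY4742, 4188, 4533 and 4539 in sus1∆ and 3884, 4537 and 3192 in thp1∆. It rose by 0.86 ± 0.14 in sus1∆ (adjusted p = 0.000785) and 0.65 ± 0.14 in thp1∆ (adjusted p = 0.00144), the latter below 1.5-fold with equal medians (0.53), after quantile normalisation and without thp1∆ replicate 2, and not called by the methods' criteria. In sac3∆ its value was −0.36 ± 0.15 (adjusted p = 0.0748), and without BY4741 replicate 1, which leaves a single wild-type value, it was called down (−0.64). PYC2 fell in thp1∆ (−0.70 ± 0.05, adjusted p = 5.85e-07), and in sus1∆ it was at −0.34 ± 0.05 (adjusted p = 0.000767), past the test but short of 1.5-fold.

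Of the carriers that move organic acids across the mitochondrial membrane, ODC1 for α-ketoglutarate (0.77 ± 0.10, adjusted p = 3.12e-05) and AGC1 for aspartate and glutamate (0.70 ± 0.05, adjusted p = 2.75e-07) rose in thp1∆. Both lie on chromosome XVI, below its median of 0.86 in that mutant, and AGC1 fell short of 1.5-fold with equal medians and after quantile normalisation (0.58 in both). In sus1∆ the oxaloacetate carrier gene OAC1 (−0.69 ± 0.14, adjusted p = 0.00242) and ODC2, the isogene of ODC1 (−0.62 ± 0.12, adjusted p = 0.00171), fell.

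MDH2, the cytoplasmic malate dehydrogenase, went opposite ways in the mutants. It read 9769.6, 10911 and 7781 units in sac3∆ against 5997, 6869 and 3722 in BY4741, a rise of 0.81 ± 0.19 (adjusted p = 0.00352). This call was lost without BY4741 replicate 3 (0.55) and with only the 6 arrays in the fit. In sus1∆ it was lower (3649.95, 3144 and 3311 units, against 5644, 5654 and 5245 in BY4742), a fall of −0.71 ± 0.19 (adjusted p = 0.0126), lost without sus1∆ replicate 2 (−0.66). MPC3, a subunit of the mitochondrial pyruvate carrier, fell in sac3∆ (−1.59 ± 0.46, adjusted p = 0.0126), where its wild-type values were 829.5, 3169 and 896.7 units, again with BY4741 replicate 2 highest. Without that array the value was −0.96, still called. This call was lost with only the 6 arrays in the fit, by the methods' criteria and without sac3∆ replicate 1 or 2. PCK1, for the gluconeogenic phosphoenolpyruvate carboxykinase, was higher in BY4742 than in BY4741 (0.86 ± 0.13, adjusted p = 0.00288), and not called when only these 6 arrays were in the fit.

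Of the retrograde regulators, RTG2, which encodes the sensor upstream of Rtg1 and Rtg3, rose in thp1∆. It measured 2266, 2380 and 2325 units in BY4742 and 3371, 3504 and 3674 in thp1∆, with no overlap. The change was 0.60 ± 0.06 (adjusted p = 4.56e-06), just past 1.5-fold, and the call was lost with equal medians (0.47), after quantile normalisation, without BY4742 replicate 1 and without thp1∆ replicate 3. In sus1∆ RTG2 stood at 0.23 ± 0.06 (adjusted p = 0.0172) and in sac3∆ at 0.30 ± 0.06 (adjusted p = 0.00201), both short of 1.5-fold. GRR1, for the F-box protein that targets Mks1 for degradation, also passed in thp1∆ (0.63 ± 0.07, adjusted p = 1.01e-05), a call that was lost with equal medians (0.51) and after quantile normalisation; it falls outside the naming rule and was added after its values were seen. MKS1, the inhibitor, was at −0.13 ± 0.07 in thp1∆ (adjusted p = 0.125), 0.09 ± 0.07 in sac3∆ (adjusted p = 0.311) and −0.06 ± 0.07 in sus1∆ (adjusted p = 0.599).

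HAP4, the activating and regulated subunit of the HAP complex, was higher in every array of thp1∆ (0.58 ± 0.14, adjusted p = 0.00327) and sus1∆ (0.45 ± 0.14, adjusted p = 0.0288) than in BY4742, both past the test and short of 1.5-fold. Its values were 4049, 3477 and 3551 units in BY4742, 4779, 5661 and 6155 in thp1∆ and 5662, 5329 and 4266 in sus1∆. Without BY4742 replicate 1, and without thp1∆ replicate 1, HAP4 was called in thp1∆ (0.65 and 0.68). None of the HAP genes tested was called in the 3 mutants, among 3 in thp1∆, 3 in sac3∆ and 4 in sus1∆; 1, 1 and 2 of them had an unadjusted p under 0.05, and the methods' criteria called 0. Of the lactate dehydrogenase genes 2 were tested in each comparison and of the glutamate genes 4, and limma and the methods' criteria called 0 of them. Of these, 4 had an unadjusted p under 0.05 in thp1∆, 2 in sac3∆, 2 in sus1∆ and 0 between the wild types. Over all tested genes, limma called 21.1% in thp1∆, 12.1% in sac3∆, 4.86% in sus1∆ and 1.1% between the wild types. The methods' criteria called 885, 368, 213 and 38 genes in all, in the same order. The share of all genes under the unadjusted p alone is not given here. The filter removed CYB2, the L-lactate dehydrogenase gene, and GDH3, a glutamate dehydrogenase gene, which are given here after their values were seen. CYB2 averaged 263.9 units in BY4742, 914.7 in thp1∆ and 454.0 in sus1∆, and 264.8 in BY4741 and 545.7 in sac3∆, with every mutant above its wild type in all arrays (log2 fold changes of 1.80, 0.79 and 1.05). GDH3 averaged 558.9 units in BY4742, 156.9 in thp1∆ and 568.4 in sus1∆, and 331.7 in BY4741 and 130.4 in sac3∆, below the wild type in all arrays of thp1∆ and sac3∆ (log2 fold changes of −1.84 and −1.35) and overlapping it in sus1∆. The glyoxylate cycle genes ICL1 and MLS1 and the cytoplasmic isocitrate dehydrogenase gene IDP2 did not pass the filter in any comparison, IDP2 reading 463 units in BY4742, 542 in thp1∆ and 616 in sus1∆ on average.

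The genes whose profiles over the 15 arrays were most like those of CIT2 and IDH1 were looked up among 3721 genes with a value in every array and a mean over 600 units. Likeness was measured as the root mean square difference of log2 values, each gene centred on its own mean. For CIT2 the 5 nearest genes were VHR1 (0.146), ICT1 (0.190), PRB1 (0.247), TDH1 (0.249) and MZM1 (0.253), and among the genes of the set that could be compared IDH2 was at rank 17, CIT1 at rank 33, IDH1 at rank 483 and FUM1 at rank 2174. VHR1 had log2 fold changes of 0.83 in sus1∆, 0.55 in thp1∆ and −0.09 in sac3∆. For IDH1 they were PDR3 (0.179), YOR289W (0.184), ATG40 (0.195), its partner IDH2 (0.244) and GSC2 (0.254), with CIT2 at rank 37, CIT1 at rank 191 and FUM1 at rank 2240. PDR3 had log2 fold changes of 1.25 in sus1∆, 0.53 in thp1∆ and −0.32 in sac3∆. The arrays are the points of these profiles and share the strain differences described above.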

How the data were processed

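Values were model-based expression intensities that the authors computed with dChip (invariant-set normalisation, perfect-match probes) and deposited as a linear intensity in arbitrary units per probe set, with outliers left empty. No dChip version is given in the sources read. Of 5900 probe sets, 5498 were matched to 1 gene of a RefSeq table and 402 to none here, and the brightest set was used for 47 genes with several. Log2 values were used without further scaling, empty cells as missing. A model with 5 strain groups over 15 arrays was fitted with limma 3.58.1 in R 4.3.3 (lmFit, eBayes, 2.88 prior degrees of freedom), with Benjamini-Hochberg adjustment over the genes tested, and was tested on simulated data. The filter (genes below 600 in 50% or more of the compared arrays removed), the fold (1.5) and the difference (100) were taken from the study's methods, whose p under 0.05 was not adjusted. Errors of log2 fold changes are standard errors from limma, with n = 3 arrays per strain unless a cell was empty. The number of arrays limits the precision.

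The 10 genes and the lists of other pathway genes were chosen with earlier results of these data known. Named were all 10 genes; of the other pathway genes, those called in a comparison, up to the 5 largest per direction, and always RTG2, MKS1, HAP4, IDP2 and PYC1; and the 5 genes most like CIT2 and like IDH1. Alternatives were no filter, equal array medians, quantile normalisation, only the 6 arrays of a comparison in the fit, the methods' criteria, a replicate block, the mean of all probe sets and leaving out each array. Promoter motifs were not analysed here.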

Additional observations from a re-analysis of the deposited data

Results flagged for a closer look

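Differences between the responses of the mutants were tested with limma for the other pathway genes only, after the values had been seen, and adjusted over all genes tested; the 10 genes themselves were not tested in this way. A difference was called at adjusted p under 0.05 and 1.5-fold or more, without the limit on the difference of means. The filter took in all arrays of the strains compared. Of 51 genes tested in thp1∆ minus sac3∆, 2 were higher and 3 lower, where 6.95% of all genes were called in either direction. PYC1 (1.01 ± 0.21) and DIC1, the dicarboxylate carrier gene (0.73 ± 0.14), had the higher log2 fold change in thp1∆. MDH2 (−1.16 ± 0.26), PCK1 (−0.77 ± 0.18) and MAE1, the malic enzyme gene (−0.68 ± 0.12), had the lower one there. The means of these last genes fell in thp1∆, with no fall called, and rose in sac3∆, where only MDH2 was called. PCK1 went from 1004 units in BY4742 to 692 in thp1∆, and from 562.5 in BY4741 to 654 in sac3∆. MAE1 went from 5115 to 3543 and from 4080 to 4526, and MDH2 from 5514 to 4361 and from 5530 to 9487. The sac3∆ arrays of PCK1 and MAE1 overlapped those of BY4741. Each difference between these responses also takes in the gap between the wild types. PCK1 was called higher in BY4742 than in BY4741, and the MAE1 arrays of the wild types did not overlap. Of 52 genes in sus1∆ minus sac3∆, 3 were higher and 2 lower, where 14.6% of all genes were called: PYC1 (1.22 ± 0.21), DIC1 (0.73 ± 0.14) and SDH5 (0.68 ± 0.17) against MDH2 (−1.53 ± 0.26) and OAC1 (−1.22 ± 0.19). Of 51 genes in sus1∆ set directly against thp1∆, 1 was higher (PCK1, 0.79 ± 0.13) and 2 were lower (OAC1, −1.14 ± 0.14, and AGC1, −0.66 ± 0.05), where 17.4% of all genes were called. AGC1 lies on chromosome XVI, whose tested genes had a median change of 0.86 in thp1∆ and 0.04 in sus1∆. The share of all genes takes that chromosome in. PCK1 in thp1∆ minus sac3∆ (−0.58) and SDH5 in sus1∆ minus sac3∆ (0.56) were not called without BY4741 replicate 3. DIC1 and MAE1 fall outside the naming rule. Of the 10 genes, DLD3 had log2 values of opposite sign, −0.30 in sac3∆ and 0.34 in thp1∆ (neither called) and 1.08 in sus1∆ (called), with every array on that side of its wild type's mean; this difference was not tested, the sac3∆ arrays overlapped BY4741, and the sac3∆ value was −0.04 without BY4741 replicate 2.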

How the results depend on the processing

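With no filter, the genes called rose from 209 to 326 in sus1∆ and from 47 to 88 between the wild types, and the other pathway genes called from 2 to 5 in sac3∆ and from 1 to 2 between the wild types. Equal array medians and quantile normalisation lowered the other pathway genes called in thp1∆ from 8 to 5 and 4 (1 up and 4 down, and 1 up and 3 down), and moved the split of all genes called up and down from 631 and 261 to 477 and 444, and 481 and 421, in thp1∆, from 381 and 140 to 272 and 245, and 287 and 227, in sac3∆, and from 149 and 60 to 100 and 90, and 118 and 81, in sus1∆. With only the 6 arrays in the fit, 24 genes and 0 other pathway genes were called between the wild types and 0 other pathway genes in sac3∆, where the methods' criteria called 1. Leaving out 1 array each gave 1 to 4 other pathway genes in sac3∆ and 29 to 90 genes between the wild types (90 without BY4741 replicate 2, 81 without BY4741 replicate 1, 29 and 31 without BY4742 replicate 1 and 3). Members called ranged from 3 to 5 in thp1∆ and from 5 to 6 in sus1∆, and were 0 in sac3∆ and between the wild types under all 13 alternatives. Deviations of same-numbered arrays correlated at −0.158 to −0.0863 in thp1∆, 0.0579 to 0.302 in sac3∆, 0.0956 to 0.165 in sus1∆ and −0.206 to −0.0538 between the wild types. In thp1∆ and between the wild types, a differently numbered array always correlated better. In sus1∆ the same number always gave the higher value (0.165, 0.127 and 0.0956 against at best −0.0755, 0.0185 and −0.0433). In sac3∆ it did so for replicates 1 and 3 only. Whether the numbers mark pairs in sus1∆ and sac3∆ was not tested further. With the replicate block 893, 526, 207 and 44 genes were called in thp1∆, sac3∆, sus1∆ and between the wild types. The planned look at promoter motifs was not run. RTG1 lay under the filter value in all arrays, and cross-hybridisation between CIT1 and CIT2 was not tested.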
